A study of Homo sapiens with 5 samples.

Results

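The CDKN2A, CDKN2B and CDKN2B-AS1 genes lie side by side on chromosome 9 (band 9p21) and were described here through the H3K9me3 peaks that fell in their bodies or within 500 kb on either side. The window ran from position 21467752 to 22628142 (GRCh38), a length of 1160391 bp, around a gene span of 160391 bp. It held 12 of the 51677 peaks that the 3 deposited lists placed on chromosomes 1 to 22, X and Y. Of these, 4 were in the list labelled KD, 6 in the list labelled EV and 2 in a list whose name carries no genotype. The locus was chosen by the positions and strengths of its peaks in these same lists, so its values are a description and no test was made on them.

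Trimethylation of histone H3 at lysine 9 (H3K9me3) was mapped by ChIP-seq, which sequences the DNA pulled down with an antibody, in HEK293T. This established line of human embryonic kidney origin carries adenoviral early genes and the simian virus large T antigen. The labels give 5 samples: H3K9me3 libraries of KD, EV and WT cells, and input libraries of EV and WT cells, with 1 library per group. KD is the KCNQ1OT1 knockdown of the series design, which writes its target as KCNQ1OT1_K, and EV, taken to stand for an empty vector, is its control. The list without a genotype was not assigned to WT, and no WT comparison was made. With 1 library per group there was no replicate check, so no test between KD and EV was possible, and the depth behind the lists is unknown.

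CDKN2A encodes 2 unrelated inhibitors of cell division from alternative first exons. INK4A (p16) blocks the cyclin D kinases CDK4 and CDK6 and keeps the retinoblastoma protein active, and ARF (p14) binds and inhibits the ubiquitin ligase MDM2. CDKN2B encodes INK4B (p15), a close relative of INK4A that blocks the same kinases. CDKN2B-AS1, also called ANRIL, is a long non-coding RNA that runs across CDKN2B in the antisense direction and is known for recruiting polycomb repressors to the locus. The genes are induced in senescence and are often deleted or methylated in tumours. H3K9me3 is a mark of silenced chromatin bound by heterochromatin protein HP1, and large T antigen binds the retinoblastoma protein.

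The 250 bases before each transcript start of the 3 genes are shown because they are the places where these transcripts begin, and the peak at CDKN2A lay outside all of them. Sequences are from RefSeq (GRCh38.p14), written 5′ to 3′ on the strand of the gene, with each CG dinucleotide in capitals.
CDKN2A, start used by INK4A, chr9:21974858-21975107, minus strand: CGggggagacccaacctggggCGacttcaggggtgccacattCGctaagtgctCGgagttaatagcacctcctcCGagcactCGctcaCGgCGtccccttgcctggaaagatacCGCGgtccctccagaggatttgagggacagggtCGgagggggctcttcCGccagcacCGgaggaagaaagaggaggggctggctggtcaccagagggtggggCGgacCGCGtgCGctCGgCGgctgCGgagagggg
CDKN2A, start used by ARF, chr9:21995325-21995574, minus strand: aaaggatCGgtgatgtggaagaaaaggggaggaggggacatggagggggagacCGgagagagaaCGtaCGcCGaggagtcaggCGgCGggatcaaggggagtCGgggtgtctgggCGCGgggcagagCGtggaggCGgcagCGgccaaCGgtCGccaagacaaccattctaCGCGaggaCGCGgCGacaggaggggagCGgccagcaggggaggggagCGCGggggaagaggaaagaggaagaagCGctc
CDKN2B-AS1, chr9:21994541-21994790, plus strand: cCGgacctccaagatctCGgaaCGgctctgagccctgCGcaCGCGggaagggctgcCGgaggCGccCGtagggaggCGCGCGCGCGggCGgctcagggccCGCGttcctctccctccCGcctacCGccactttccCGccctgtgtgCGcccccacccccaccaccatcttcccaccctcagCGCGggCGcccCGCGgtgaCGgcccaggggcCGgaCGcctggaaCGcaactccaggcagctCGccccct
CDKN2B, chr9:22009306-22009555, minus strand: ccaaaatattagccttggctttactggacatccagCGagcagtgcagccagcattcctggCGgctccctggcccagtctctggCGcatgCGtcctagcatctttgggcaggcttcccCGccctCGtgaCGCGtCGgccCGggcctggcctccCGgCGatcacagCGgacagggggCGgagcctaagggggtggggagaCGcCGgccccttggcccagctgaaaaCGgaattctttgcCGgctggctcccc

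All 4 stretches were rich in CG. The INK4A start had 20 CG dinucleotides and a GC content of 66.8%, the ARF start 24 and 66.8%, the CDKN2B-AS1 start 31 and 75.6%, and the CDKN2B start 18 and 66.4%. Over 35116 promoters of the same length in the RefSeq table the medians were 11 CG dinucleotides and a GC content of 58%. No peak of any list touched the 4 promoter windows, which run from 250 bases before to 50 after a start. Peaks touched 1.10% of all promoter windows in KD, 1.72% in EV and 0.359% in the list without a genotype, so an untouched promoter was the usual state in each list. The promoters that peaks did touch had a median of 21 CG dinucleotides in KD, 18 in EV and 12 in the list without a genotype.

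The KD list held a peak inside CDKN2A that neither other list had. It spanned chr9:21970814-21971303, a width of 490 bp, and covered 1.78% of the 27573 bp gene. Its fold enrichment over the caller's background was 6.34 and its −log10 p was 11.03, both the authors' values for the peak. It lay downstream of both CDKN2A starts, 3.55 to 4.04 kb from that of INK4A and 24.0 to 24.5 kb from that of ARF, and 3.06 kb before the 3′ end of the gene. Both transcripts of CDKN2A run through this stretch. The gene table holds no exons, so exon or intron was not assigned.

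No EV peak lay in CDKN2A. The EV peak nearest to the KD peak was 70.8 kb away, in MTAP, and the nearest peak of the list without a genotype was 273 kb away. In the KD list the CDKN2A peak stood at percentile 97.2 for fold enrichment and 89.5 for −log10 p, but at percentile 17.4 for width. It was thus a narrow peak of high enrichment, against KD medians of 1016 bp, a fold of 3.68 and a −log10 p of 4.98.

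**Figure D1:**
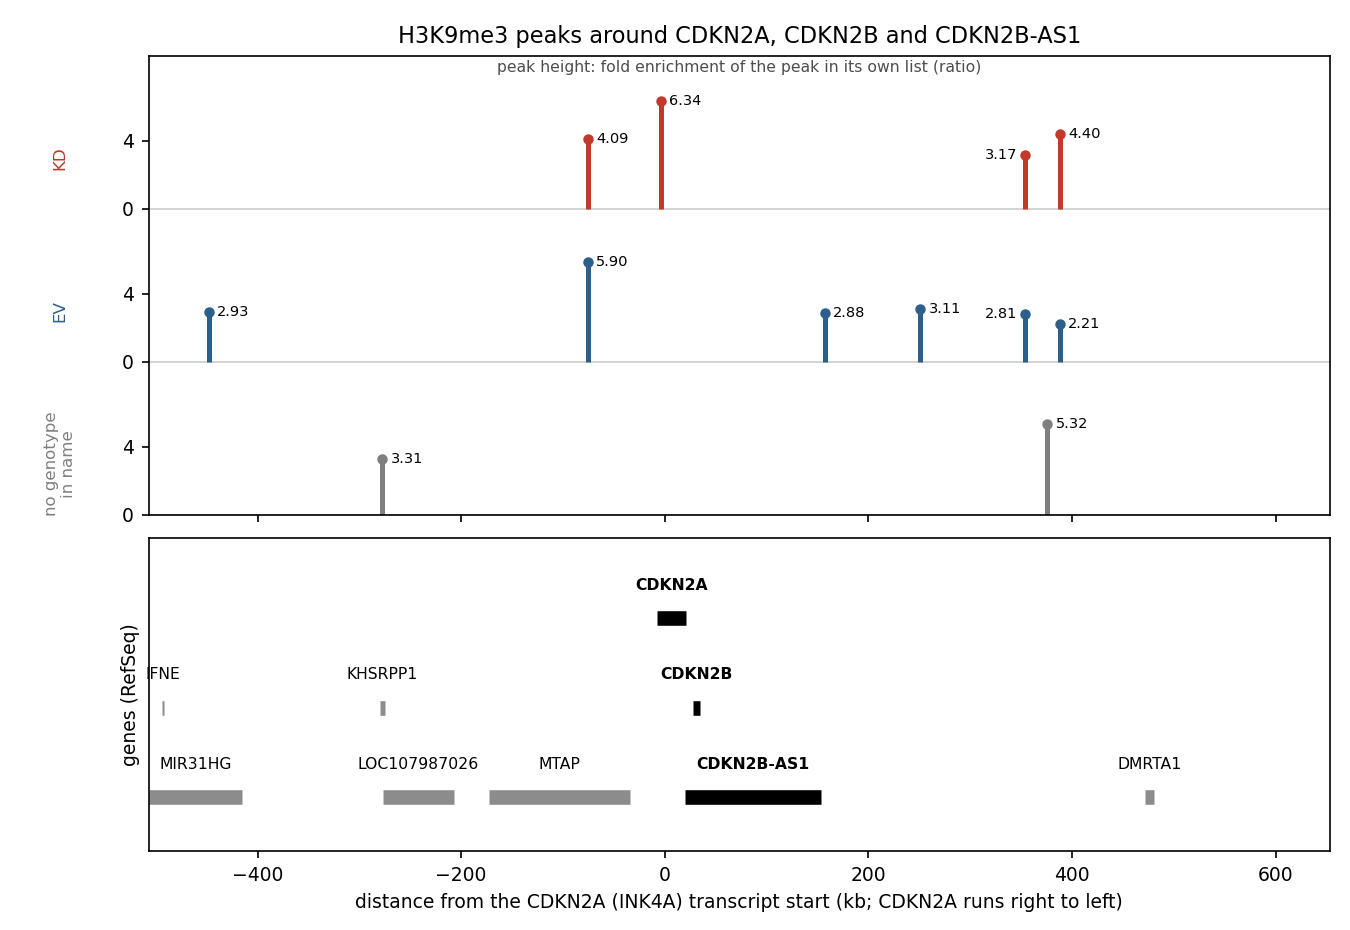
H3K9me3 peaks in the window around CDKN2A, CDKN2B and CDKN2B-AS1, plotted by distance from the INK4A start of CDKN2A in kb (horizontal axis), with stem height giving the fold enrichment of each peak in its own list (a ratio). The KD list has a peak of 6.34 in CDKN2A where the EV list and the list without a genotype have none, and KD and EV share the peak in MTAP.

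KD peaks as strong as the one in CDKN2A almost always had an EV partner, meaning an EV peak that overlapped by at least 1 bp. Of the 1328 KD peaks that reached the −log10 p of 11.03, 1321 had one (99.5%, exact Clopper-Pearson 95% interval 98.9 to 99.8), and the CDKN2A peak was 1 of the 7 that did not. These intervals cover counting error over peaks only. Over all 12650 KD peaks the share was 87.7%. By fold enrichment, 360 KD peaks reached at least 6.34 and 4 of them lacked an EV partner. Of the 1557 KD peaks without an EV partner, 62 lay on chromosome 9, and the CDKN2A peak had the highest −log10 p of those 62.

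The other 6 strong KD peaks without an EV partner lay on 6 other chromosomes. One touched KCNQ1 and KCNQ1OT1, the gene of the targeted RNA, with a fold of 5.17 and a −log10 p of 11.2. Others lay in TENM3, a neuronal adhesion gene (fold 7.36, −log10 p 12.5), and GRK1, the rhodopsin kinase gene (6.15 and 11.3). A further peak touched LINC01191 and LINC02992 (5.098 and 16.1). The remaining pair were intergenic, on chromosomes 5 and 17, with folds of 2.34 and 1.99. Their nearest protein-coding genes lay 15.8 kb and 2219 kb away, so the one on chromosome 17 lay in a long stretch without such genes. The list without a genotype had a peak at the place on chromosome 17 and at none of the other 6. Most KD peaks of this strength had a partner in that list, though many had none. Of the 1328 KD peaks that reached the −log10 p of the CDKN2A peak, 922 (69.4%) had one there and 406 had none. Over all KD peaks the share with one there was 45.5%.

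A KD peak and no EV peak touched 328 protein-coding genes, 1.65% of the 19862 tested. In 324 of them at least 1 of the KD peaks also had no EV partner outside the gene, and among these 324 CDKN2A carried the peak with the highest −log10 p. For genes of 20 to 40 kb, the length class of CDKN2A, the share was 1.17%, and 1.43% of all protein-coding genes had a KD peak and no peak in either other list. CDKN2A fell in all of these classes. The next in this order was ELAVL2, a neuronal RNA-binding protein gene in the same chromosome band, with a KD peak at chr9:23820651-23821157 of fold 5.897 and −log10 p 10.3. It was followed by GPR25 at 10.05, NBPF4 at 9.45 and NBPF6 at 9.21. The NBPF genes belong to a family of near-identical copies that share reads, so their values are uncertain.

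KD peaks without an EV partner were narrow in general, as was the one in CDKN2A. Their median width was 500 bp, with a median fold of 3.58 and a median −log10 p of 4.26. The KD peaks with a partner had medians of 1135 bp, 3.697 and 5.14. The CDKN2A peak thus had the usual width of its class but a −log10 p above its 90th percentile of 6.11. Peaks of this class lay nearer to transcript starts than the others. No starts were held for chromosome 8, and the count took in 1514 of the 1557 peaks of this class. Of these, 284 (18.8%, interval 16.8 to 20.8) had a start within 5 kb. With an EV partner it was 785 of the 10594 counted (7.41%, interval 6.92 to 7.93). The CDKN2A peak was among those 284, since the INK4A start is 3.55 kb away.

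**Figure D2:**
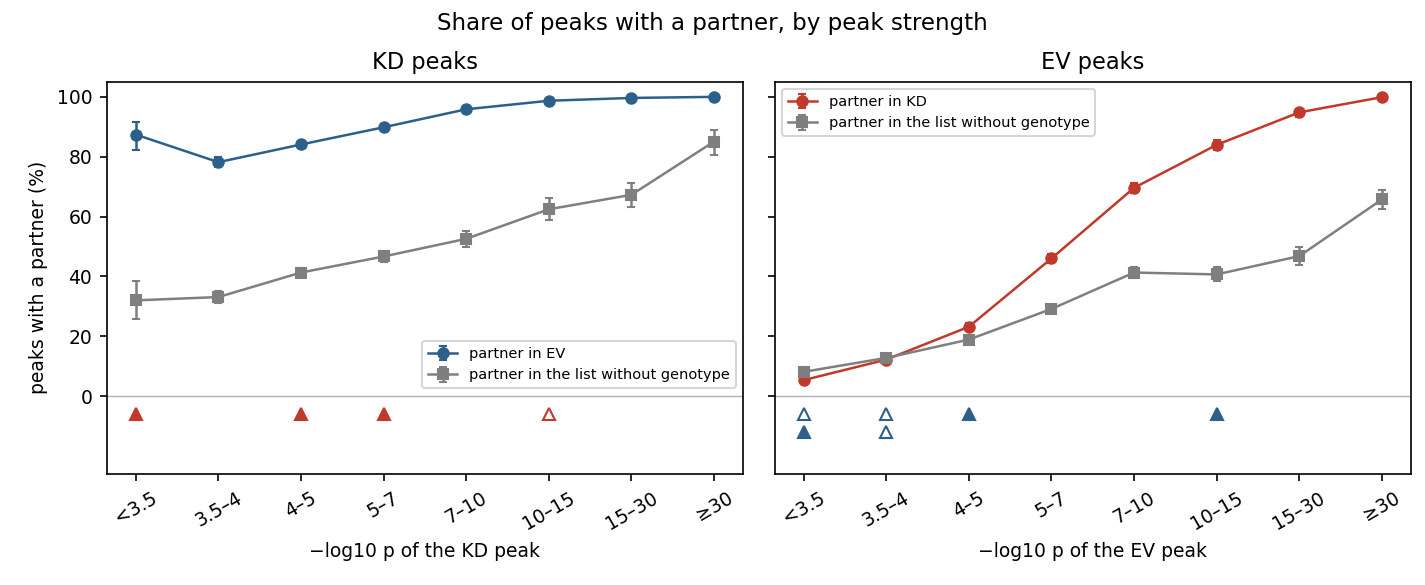
Share of KD peaks (left) and EV peaks (right) with a partner in another list, in percent, by bins of the peak's −log10 p, with exact 95% intervals that cover counting error only. Triangles under the axis mark the bins of the window's peaks, filled where the peak has a partner in the other of KD and EV and open where it has none: the open KD triangle between 10 and 15 is the CDKN2A peak, in a bin where 98.7% of KD peaks have an EV partner.

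CDKN2B and CDKN2B-AS1 carried no peak in any list. CDKN2B spans 22002903 to 22009313, and its nearest peaks were 31.6 kb away in KD (the CDKN2A peak), 103 kb in EV and 305 kb in the list without a genotype. CDKN2B-AS1 spans 21994791 to 22128142, and its nearest peak was 23.5 kb away in KD. In EV a peak stood 4.15 kb beyond the far end of this gene, at chr9:22132293-22132680. That EV peak was narrow and weak, with a width of 388 bp, a fold of 2.88 and a −log10 p of 3.29, and the nearest KD peak was 161 kb away.

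For the members, then, the KD list touched 1 of the 2 protein-coding genes and the EV list touched neither. Over all protein-coding genes 11.5% were touched in KD, 24.6% in EV and 7.29% in the list without a genotype. For genes of 20 to 40 kb these shares were 7.90%, 22.4% and 4.55%. Among lncRNA genes of any length, the class of CDKN2B-AS1, these shares were 4.78%, 11.1% and 4.59%. Over these classes a gene without a peak was the common case in every list. CDKN2B-AS1 spans 133352 bp, and no share was computed for lncRNA genes of that length. The longest stretch without a peak that overlapped the 3 genes measured 358 kb in KD, 232 kb in EV and 653 kb in the list without a genotype.

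On the MTAP side of the genes, both KD and EV had a peak inside MTAP, which encodes a methionine salvage enzyme and is often lost together with CDKN2A in tumours. The KD peak spanned chr9:21898610-21899764, with a width of 1155 bp, a fold of 4.09 and a −log10 p of 4.72. The EV peak spanned chr9:21898285-21899985, with a width of 1701 bp, a fold of 5.90 and a −log10 p of 10.4. The KD peak lay wholly inside the EV peak and covered 67.9% of it. It ranked near the middle of the KD list for −log10 p (percentile 43.9), and the EV peak stood high in the EV list (percentile 85.7). Each fold is relative to its own list's background, and no difference is read between them.

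The EV peak in MTAP was the strongest of the 6 EV peaks in the window. Of the 3522 EV peaks at least as strong, 91.9% had a KD partner (interval 91.0 to 92.8) and 49.0% a partner in the list without a genotype (47.3 to 50.7). The MTAP peak had a partner in KD and none in the list without a genotype.

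Farther out on the same side, EV had a peak in MIR31HG, the host gene of the microRNA miR-31, at chr9:21526423-21527960. It was 1538 bp wide, with a fold of 2.93 and a −log10 p of 3.54, and covered 1.46% of the gene. The nearest KD peak was 302 kb away. Only 12.2% of EV peaks with a −log10 p from 3.5 to 4 had a KD partner, so its absence from KD was the usual outcome at that strength. The precursor of miR-31 itself, 71 bases long, carried no peak, and the EV peak lay 14.2 kb from it. IFNE, which encodes the epithelial interferon epsilon, had no peak in any list.

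On the other side, between CDKN2B-AS1 and DMRTA1, the lists held several intergenic peaks. DMRTA1 encodes a doublesex-type transcription factor and had no peak itself. At about 354 kb from the INK4A start, KD had chr9:22328938-22329307 (370 bp, fold 3.17, −log10 p 3.44). This lay wholly inside the EV peak chr9:22328870-22329612 (743 bp, fold 2.81, −log10 p 4.72). About 34 kb farther on, KD had chr9:22363274-22363884 (611 bp, fold 4.399, −log10 p 5.62) and EV chr9:22363017-22363661 (645 bp, fold 2.21, −log10 p 3.001). These overlapped by 388 bp, 63.5% of the KD peak and 60.2% of the EV peak.

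The second pair stood at different places in their lists. The KD peak was at percentile 62.0 for −log10 p and 80.2 for fold enrichment, and its EV partner was at percentiles 0.422 and 3.12, among the weakest EV peaks kept. EV alone had a further peak at chr9:22225564-22226398 (835 bp, fold 3.11, −log10 p 3.73), and the nearest KD peak was 103 kb away.

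**Figure D3:**
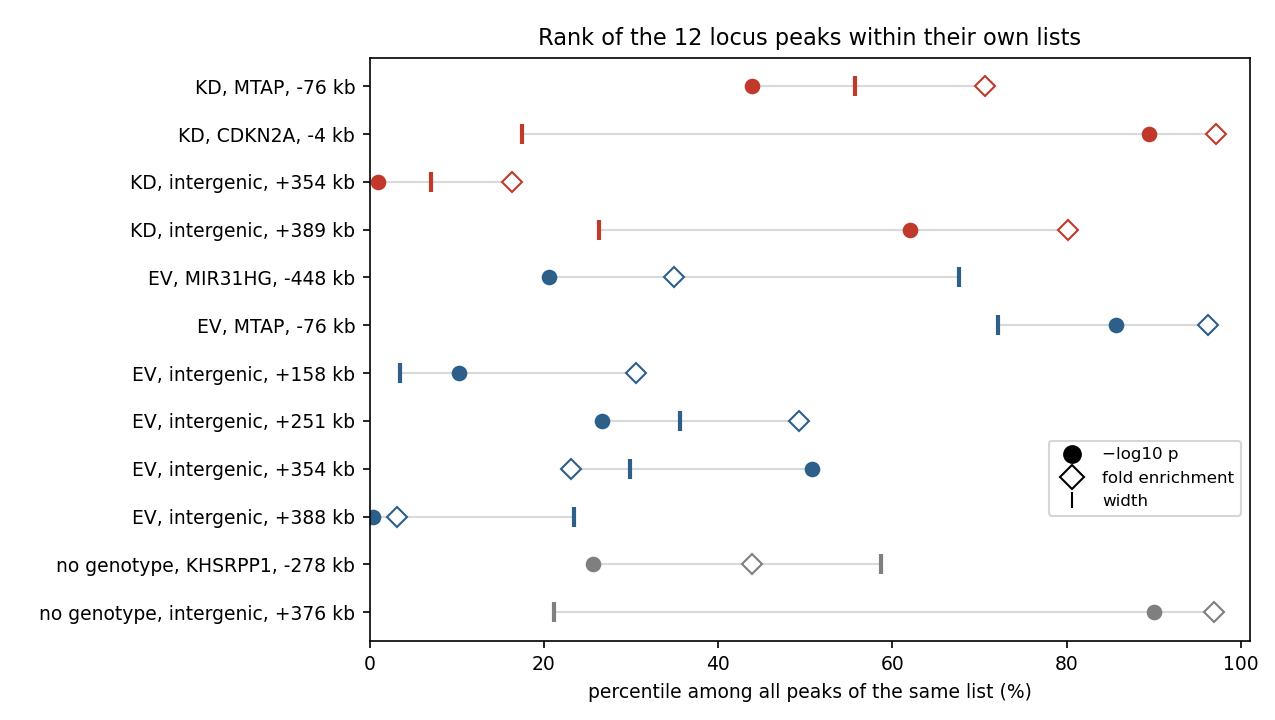
Percentile of each of the 12 peaks of the window among all peaks of its own list (horizontal axis, percent) for −log10 p (filled circles), fold enrichment (diamonds) and width (bars), with the gene touched and the distance of the midpoint from the INK4A start. The CDKN2A peak stands at 97.2 for fold and 17.4 for width in KD, and the MTAP peak at 96.2 and 72.2 in EV.

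The list without a genotype shared no peak of the window with KD or EV. Its peaks lay at chr9:21696641-21697999, in the pseudogene KHSRPP1 (1359 bp, fold 3.31, −log10 p 3.71), and at chr9:22350516-22351056, intergenic (541 bp, fold 5.32, −log10 p 7.76). The intergenic one was 12.2 kb from the nearest KD peak and 12.0 kb from the nearest EV peak. None of the 4 KD peaks and none of the 6 EV peaks had a partner in this list (intervals 0 to 60.2% and 0 to 45.9%), against 45.5% of all KD and 24.7% of all EV peaks. Of its own peaks, 35.6% had a KD partner and 50.2% an EV partner over the whole list. For peaks at least as strong as the intergenic one, these shares were 87.1% and 91.7%.

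Between KD and EV, 3 of the 4 KD peaks of the window had an EV partner (75%, interval 19.4 to 99.4) and 3 of the 6 EV peaks had a KD partner (50%, interval 11.8 to 88.2). Over the whole lists these shares were 87.7% and 37.7%. With so few peaks the intervals are wide, and nothing is read from the comparison. The KD share was 33.3% (1 of 3 peaks) at a −log10 q of at least 2, 25% (1 of 4) at a fold of at least 3, and 50% (2 of 4) with EV limited to its strongest 12650 peaks, as many as KD holds. The 3 shared places were MTAP and the 2 intergenic ones toward DMRTA1. Against the uncut EV list the CDKN2A peak was the single KD peak without a partner, and under each of these cuts other KD peaks of the window lacked one too. It was the strongest KD peak of the window by −log10 p, whereas the 3 EV peaks without a partner all had a −log10 p below 4.

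Peaks covered 2626 bp of the window in KD (0.226%), 5850 bp in EV (0.504%) and 1900 bp in the list without a genotype (0.164%). Along chromosome 9 as a whole they covered 0.797%, 1.87% and 1.33%, which are means and not the shares of a typical window. Windows of the same length laid end to end along the chromosomes numbered 2649, and 80.7% of them held at least 1 KD peak, 94.0% at least 1 EV peak and 72.6% at least 1 peak of the list without a genotype. The median window had 2 KD peaks, 5 EV peaks and 1 peak of the list without a genotype, against 4, 6 and 2 in the CDKN2A window. Fewer peaks than in the CDKN2A window were found in 76.2% of windows for KD, 53.2% for EV and 52.4% for the list without a genotype. By covered share the median window had 0.124%, 0.437% and 0.0951%, less than the CDKN2A window in each list. A lower covered share than in the CDKN2A window was found in 71.8%, 55.9% and 65.0% of windows. The window was thus within the range of common windows in each list, and the 4 KD peaks exceeded the upper quartile of 3.

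The order of KD and EV in the window depended on which peaks were kept. With peaks of a fold of at least 3, KD had 4 and EV 2, and with EV limited to its strongest 12650 peaks, as many as KD holds, the counts were again 4 and 2. These cuts could not change the presence of the KD peak inside CDKN2A or the lack of EV peaks in the 3 genes. That KD peak, with a fold of 6.34 and a −log10 q of 8.10, lay far above them, and a cut adds no EV peak.

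**Figure D4:**
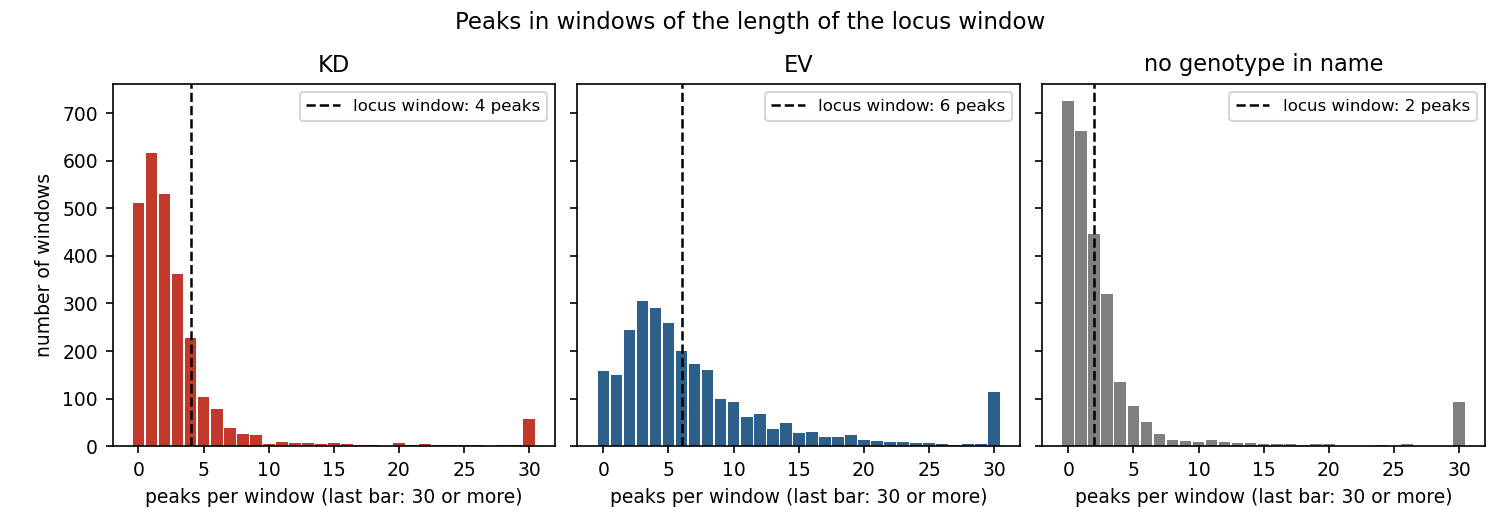
Number of windows of 1160391 bp (vertical axis) by the number of peaks they hold (horizontal axis, with 30 or more in the last bar), for KD, EV and the list without a genotype. Dashed lines mark the CDKN2A window, at 4, 6 and 2 peaks, near the bulk of each distribution.

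Just outside the 500 kb limit, the first peaks on the MTAP side lay among the type I interferon genes. In KD it was chr9:21223401-21224463 (fold 5.395, −log10 p 11.4), 2.78 kb from IFNA17 and 243 kb beyond the limit. EV had a partner for it, and also a nearer peak at chr9:21346184-21347428 (fold 3.74, −log10 p 4.89), 2.89 kb from IFNA6 and 120 kb beyond the limit. On the DMRTA1 side the first was at 22879943 to 22880598 in KD (fold 3.63), 252 kb beyond, and at 22647601 to 22647950 in EV (fold 2.05), 19.5 kb beyond and in LINC01239. Of the peaks inside, the closest to a limit was the EV peak in MIR31HG, 58.7 kb within it. The list without a genotype had its first peaks 1634 kb and 1552 kb beyond the limits.

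The other INK4 genes had no peak in their bodies in any list. CDKN2C, which encodes INK4C (p18), lies on chromosome 1, and its window of 1013890 bp held 3 KD peaks and 7 EV peaks. CDKN2D, which encodes INK4D (p19), lies on the gene-dense part of chromosome 19 with 35 protein-coding genes in its window, and this held 8 KD peaks and 21 EV peaks. The list without a genotype had 0 peaks in both windows. Per megabase, the CDKN2A window had 3.45 peaks in KD and 5.17 in EV, CDKN2C 2.96 and 6.904, and CDKN2D 7.98 and 20.9.

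In the pathway of these inhibitors, 23 genes of the INK4, ARF, cyclin D, retinoblastoma and MDM2 branches were listed, and all matched the annotation. A KD peak touched 3 of them (13.0%) and an EV peak 5 (21.7%), near the shares of all protein-coding genes given above. Those shares are not matched for gene length, so nothing more is read from this. CDKN2A was the single member with a KD and no EV peak. Both lists touched CCND3, the cyclin D3 gene, covered to 0.626% in KD and 5.43% in EV, and RB1, the retinoblastoma gene, covered to 1.08% and 1.12%. RB1 was also the single member with a peak in the list without a genotype, at 2.04%. RBL1, a retinoblastoma relative, and MDM2, the target of ARF, and its relative MDM4 had peaks in EV over 1.999%, 1.36% and 2.92% of the gene and none in KD. The other 17, among them CDKN2B, CDKN1A, CDKN1B, CDKN1C, CDK4 and CDK6, had no peak in any list. No member reached 10% of its gene body, and the median share was 0 in KD and EV.

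Among 26 polycomb and trithorax regulators, which include the repressors that act on the locus, 3 had a KD peak (11.5%) and 11 an EV peak (42.3%). EZH1, a polycomb methyltransferase, was covered to 1.08% in KD and 6.21% in EV, RBBP4, a histone chaperone, to 2.25% and 4.02%, and KMT2A, a trithorax methyltransferase, to 0.886% and 1.54%. PCGF6 (6.82%), CBX7 (5.63%), RNF2 (3.84%), KDM2B (1.01%) and SMARCB1 (0.793%) were among the 8 with an EV peak and no KD peak (8 of 26, against 14.7% of all protein-coding genes). CBX7 and RNF2 encode polycomb subunits that bind the CDKN2A locus in other cells. The KD share stood near the background of 11.5% and the EV share above that of 24.6%, with no test made. That background is over genes of any length, and touching a gene depends on its length. The named genes with an EV peak and no KD peak ran from 21909 bp (CBX7) to 173819 bp (KDM2B). Nothing is therefore read from the EV share.

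Of 26 secreted factors of senescent cells, 2 had a KD peak (7.69%) and 1 an EV peak (3.85%), against 11.5% and 24.6% of all protein-coding genes. Many of these factors are short genes, such as CXCL1 of 1916 bp, and a short gene is less often touched. Nothing is therefore read from the lower shares. CXCL1, a neutrophil chemokine, was covered to 18.0% in KD and had no EV peak. CXCL1 is short and has close copies beside it, so its value is uncertain. CCL5, a T cell chemokine, was covered to 15.3% in KD and 29.9% in EV. IL6, CXCL8, IL1A and IL1B were among the 24 with none. None of the 17 genes of the interferon list of 9p21, IFNE and the non-interferon gene KLHL9 included, had a peak in any list. The peaks named above lay 2.78 and 2.89 kb from IFNA17 and IFNA6. Over all protein-coding genes 11.5% were touched in KD, 24.6% in EV and 7.29% in the list without a genotype. These shares are not a like background, because touching a gene depends on its length. KLHL9 spans 5740 bp and the others 570 to 1475 bp, so nothing is read from the lack of peaks. The interferon alpha genes are near-identical copies that share reads, so their lack of peaks is uncertain.

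**Figure D5:**
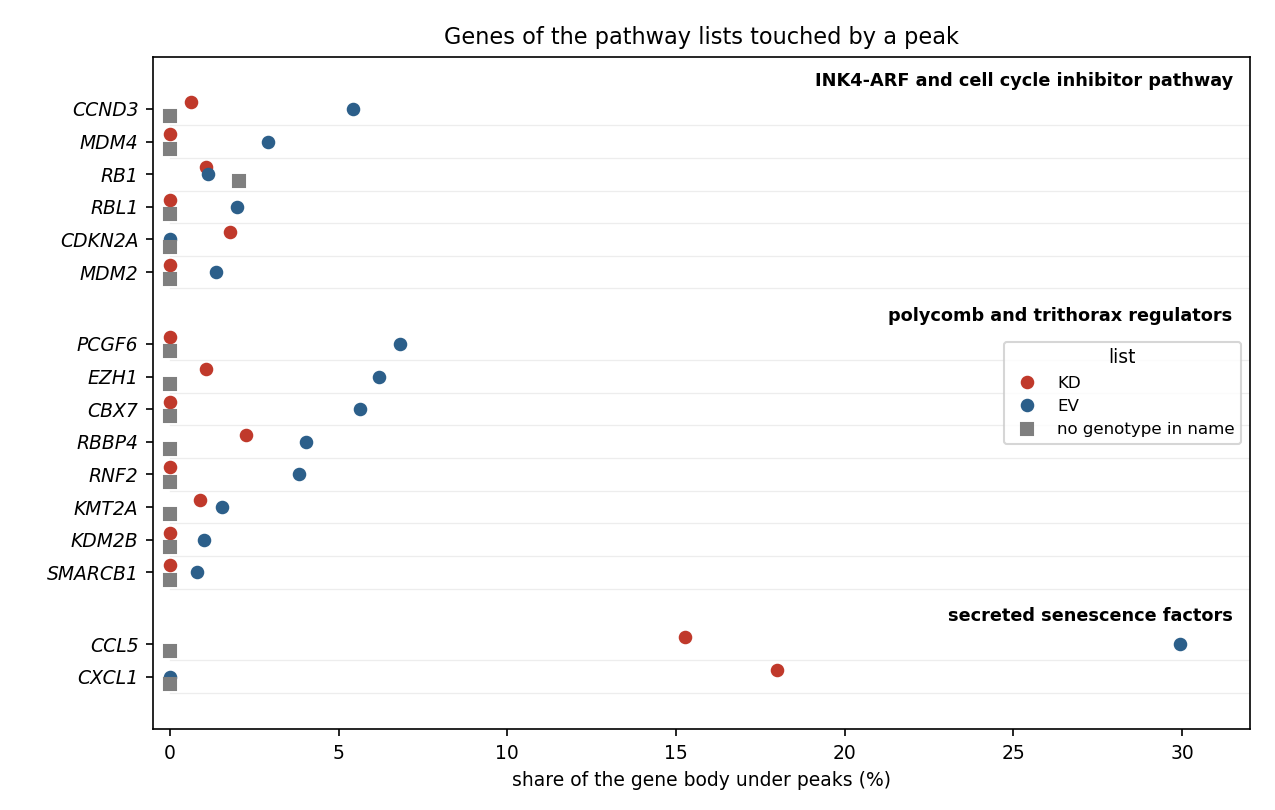
Share of the gene body under peaks (percent) for the listed genes that a peak touches, up to 8 per list, in KD (red circles), EV (blue circles) and the list without a genotype (grey squares). CDKN2A and CXCL1 are the genes with a KD value above 0 and an EV value of 0, at 1.78% and 18.0% in KD.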

How the data were processed

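H3K9me3 ChIP-seq peak lists of HEK293T cells were used. Reads were aligned with Bowtie2 and peaks called with MACS2 on GRCh38 according to the submitters' processing notes, without versions. For calling options, control libraries, filters and pooling, the sources used here give nothing. Each peak comes with the authors' deposited fold enrichment (a ratio over the caller's background), its −log10 p and its −log10 q. The smallest −log10 q in any list was 1.003. They describe, rank or filter peaks within their own list. The lists hold no reads, so the depth is unknown, and a shallower library gives fewer peaks at the same threshold.

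Gene bodies came from a RefSeq table of GRCh38.p14 (58957 genes on chromosomes, rows on other sequences left out), which has neither exons nor strand. Promoter sequences came from a RefSeq table of the same build that holds none for chromosome 8. No genome sequence was used, so the bases under the peaks are not shown. Coordinates count from 1.

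Partners overlap by at least 1 bp. Overlaps and covered bases were computed in Python 3.11.15 with numpy 2.4.6 and pandas 2.3.3, tested on simulated data against bedtools 2.31.1, with intervals from scipy 1.17.1 and plots from matplotlib 3.10.9. The members, gene lists and named genes were chosen with earlier results of these data known. Named genes are the 3 members, every gene of the window that a peak touches, the nearest gene of each peak, the first peaks beyond the window, and up to 8 touched genes per list by the largest covered share; untouched list members are given as examples. ELAVL2, GPR25, NBPF4, NBPF6, TENM3, GRK1, LINC01191, LINC02992, KCNQ1 and KCNQ1OT1 were named after their values were seen. No test between conditions was made. Alternatives were stricter −log10 q or fold, equal peak numbers, merging, other flanks and other overlaps.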

Additional observations from a re-analysis of the deposited data

How the results depend on the processing

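The peak inside CDKN2A, with no EV peak in the 3 genes, gave a peak number, KD minus EV, of 1 as reported. The difference was also 1 at a −log10 q of at least 2 and at a fold of at least 3. It was 1 again with equal peak numbers (EV cut to its strongest 12650) and with peaks within 3 kb merged. These settings were unable to change it, so they are no evidence of stability. The KD peak, with a fold of 6.34 and a −log10 q of 8.10, lay far above both cuts, and cutting adds no EV peak. The EV peaks on either side of the genes lay 232 kb apart, so merging within 3 kb added none. With 5 kb added on each side of the genes, KD and EV each had 1 peak there and their difference was 0, because the EV peak beyond CDKN2B-AS1 was then included.

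The window totals were not stable. The covered share, KD minus EV, was −0.278 percentage points as reported, −0.0162 at a −log10 q of at least 2, 0.00776 at a fold of at least 3, 0.0157 with equal peak numbers and −0.255 with a flank of 250 kb. The peak number, KD minus EV, was −2 as reported, 1 at the −log10 q cut, 2 at the fold cut, 2 with equal peak numbers, −1 with a flank of 250 kb and −5 with a flank of 1000 kb. The −log10 q cut left 3 KD and 2 EV peaks, and the fold cut and equal peak numbers each left 4 and 2. The fold cut was applied to both lists although their scaling is unknown. The share of EV peaks with a KD partner was 50% as reported and 100% with equal peak numbers, which left 2 EV peaks in the window. The pathway count, KD minus EV, was −2 as reported, −1 at the fold cut, −1 with equal peak numbers and 0 when 10% of the gene body was required. The share of KD peaks with an EV partner was 75% as reported, 33.3% at the −log10 q cut, 25% at the fold cut, 50% with equal peak numbers, 50% with a reciprocal overlap of at least 50%, and 83.3% with a flank of 1000 kb.

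No paired analysis was possible because each group had 1 library and the labels give no replicate numbers. The depth is unknown, so a place without a peak had no peak past the caller's threshold, which is not the same as no H3K9me3.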
